A study of Bos taurus with 4 samples.

Results

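The genes described here are those whose products build the sperm cell or are named for the testis. Probes were taken by the gene symbol of the array's annotation: every symbol starting with SPATA, SPAG, TEKT or CATSPER, the numbered ODF genes, AKAP3 and AKAP4, and PRM1, PRM2, TNP1, TNP2, ACR, ZPBP, IZUMO1 and PLCZ1. The rule took 71 probes for 54 genes, of 15229 gene symbols on the array, and 13 of the 54 genes had several probes. It used names only and no measured value.

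Sperm are shaped in the testis after meiosis, when transition proteins and then protamines replace the histones of the nucleus, an acrosome forms over the head, and a tail is built around a microtubule axoneme. Mature sperm make almost no RNA, and an early embryo has no known need for most of these proteins. The SPATA and SPAG names were given to genes found in testis or with antibodies against sperm, so both families mix true sperm components with proteins that dividing cells of many tissues use.

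The RNA came from bovine blastocysts, the embryo stage with an outer trophectoderm and an inner cell mass. All embryos were made in vitro from oocytes of slaughterhouse ovaries, and the groups differed in the sire's age at semen collection, which was 10 or 16 months. Semen of 4 bulls was taken at both ages according to the design, but the labels do not say which bull sired the embryos on which array, nor how many embryos made a sample. Each of 4 two-colour arrays held 1 sample of either age, with the younger sire in Cy5 on replicates 1 and 2 and in Cy3 on the other arrays, replicates 3 and 4.

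The arrays carried 43794 embryo probes and 153 spots of a negative control probe, which matches no bovine transcript by design. Levels are given as a probe's spot median divided by the median of those negative control spots on the same array and in the same dye. A level of 1 is therefore background, and levels of different probes are not set against each other. A probe counted as above background in a measurement where it exceeded that median by more than 2 median absolute deviations. With 4 arrays and 2 dyes, each probe had 8 measurements, 4 per sire age. Markers of the labelled tissue were present, some of them near background. Above background in all 8 were 12 of 13 trophectoderm probes (92.3%) and 5 of 5 inner cell mass probes (100%). The share of all probes with a gene symbol was 53.7%. At least 2 times the negative control in every measurement were 6 and 2 of them (46.2% and 40%, against 31.9%). Of the trophectoderm factors, CDX2 ran from 1.34 to 2.05 times, and HAND1 was above background in 4 of 8. KRT8, a trophectoderm keratin, ran from 74.8 to 1043 times the negative control, and POU5F1, a pluripotency factor of the inner cell mass, from 15.4 to 55.4 times.

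Most sperm and testis probes lay at or close to background. Of the 71 probes, 20 were above background in all 8 measurements (28.2%), against 53.7% of all probes with a gene symbol. A further 33 were above on at least 2 arrays but not in all 8 measurements, 7 on fewer than 2 arrays, and 11 in none. These were 46.5%, 9.86% and 15.5% of members, against 32.5%, 5.55% and 8.21% of probes with a symbol. The 53 probes above in either dye on at least 2 arrays (74.6%) were tested for sire age, and the same rule took 86.2% of probes with a symbol and 83.3% of all embryo probes. Of the negative control spots themselves, 11 of 153 (7.19%) met that rule and 0 were above in all 8. At least 2 times the negative control in every measurement was reached by 9 member probes (12.7%, against 31.9% of probes with a symbol), and at least 10 times by 3 (4.23%, against 11.1%). At gene level, 42 of 54 had a tested probe and 18 had a probe above in all 8 measurements. AKAP3, CATSPER4, ODF3, SPATA19, SPATA3, TEKT3 and TEKT4 had no probe above background anywhere. A blastocyst sample is a mixture, so fewer cells carrying a transcript and less of it per cell cannot be told apart.

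**Figure D1:**
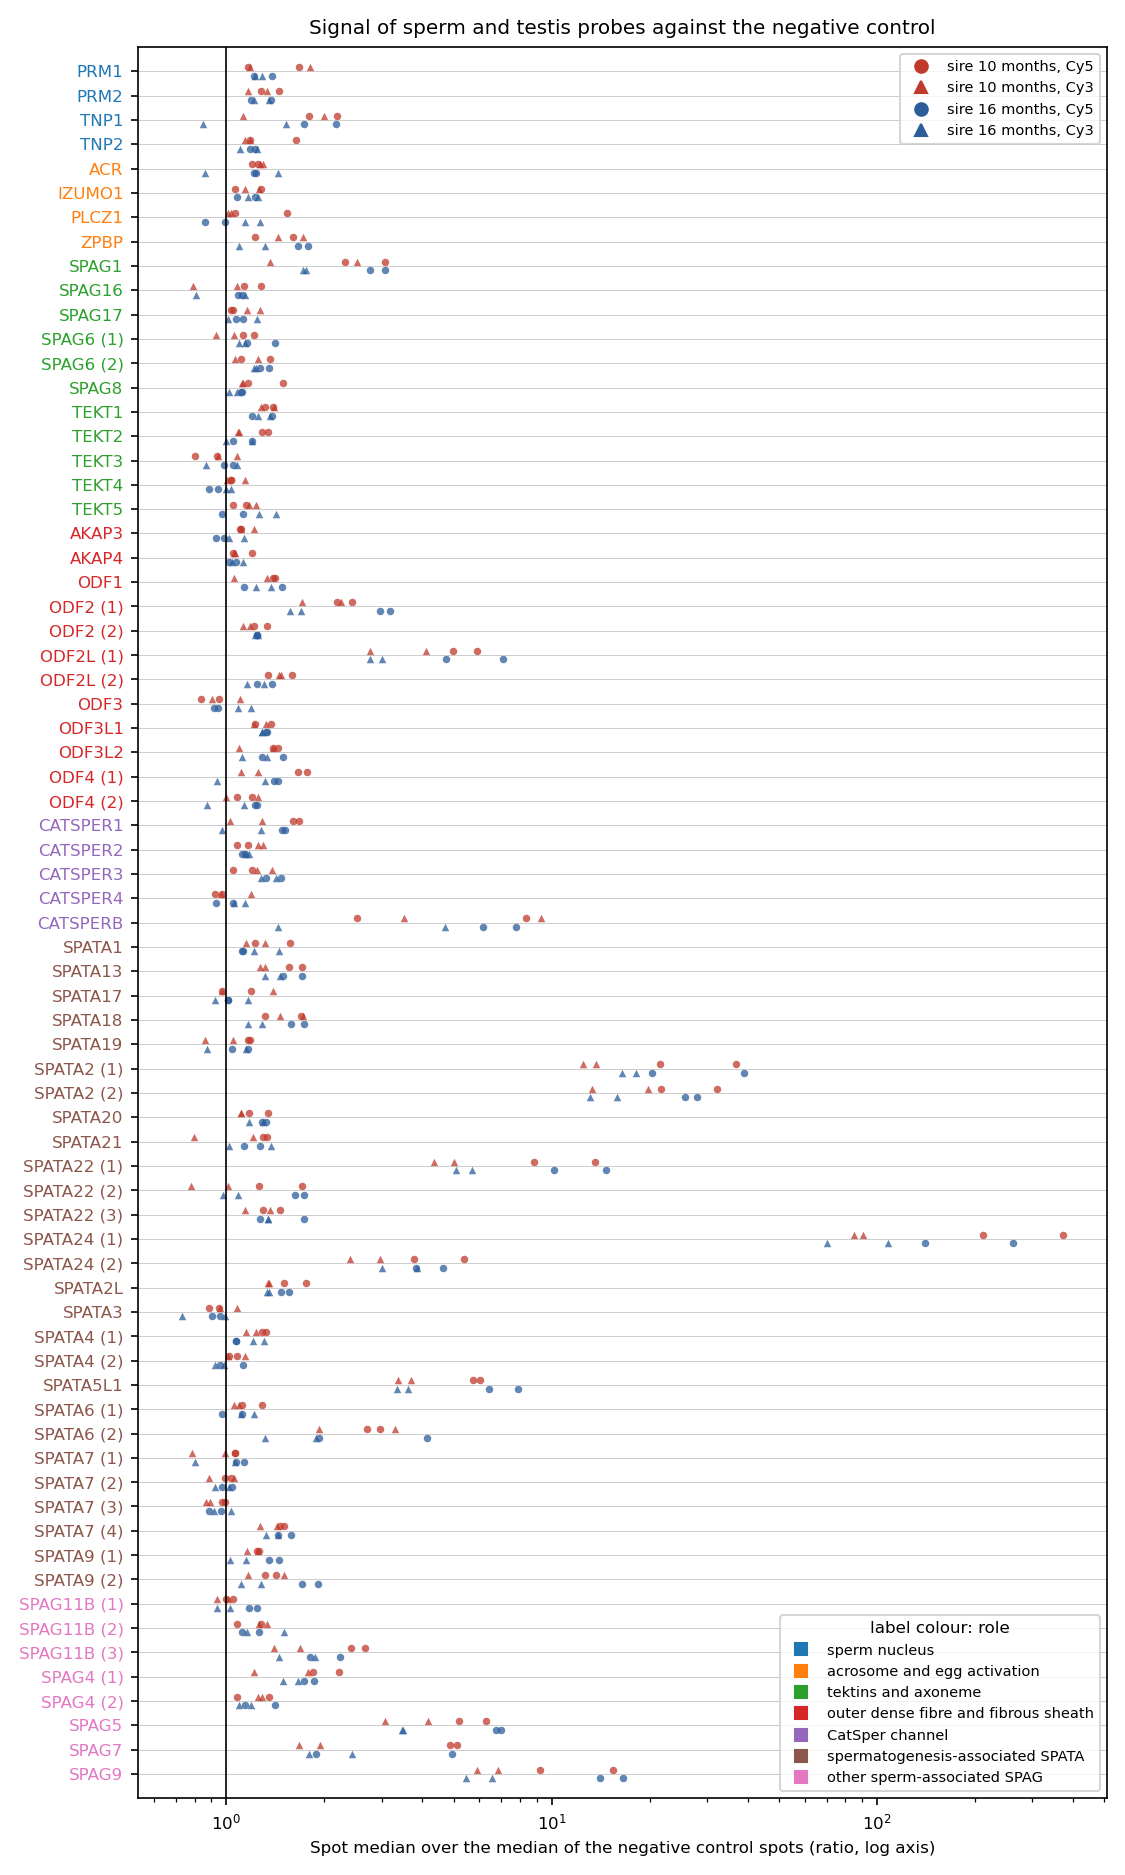
Each row is 1 sperm or testis probe, and each of its 8 points is the spot median over the median of the negative control spots of that array and dye, on a log axis (colour, sire age; shape, dye). Most rows crowd against the line at 1, and 9 probes, of ODF2L, SPAG5, SPAG9, SPATA2, SPATA22, SPATA24 and SPATA5L1, keep all 8 points at 2 or more.

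The count of members above background followed the dye. In Cy5 it was 48, 48, 43 and 44 on replicates 1 to 4, and in Cy3 it was 38, 32, 33 and 39, so Cy5 gave the higher count on all 4 arrays. Sorted by sire age, the counts were 48, 48, 33 and 39 at 10 months and 38, 32, 43 and 44 at 16 months. The higher count belonged to the younger sire on replicates 1 and 2 and to the older on replicates 3 and 4, which is where each carried Cy5. All embryo probes showed the same order of dyes, from 73.2% to 79.3% above background in Cy5 and from 59.8% to 67.7% in Cy3. The negative control median was 61 to 103 in Cy5 and 194 to 235 in Cy3, and its part in the dye difference was not tested.

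**Figure D2:**
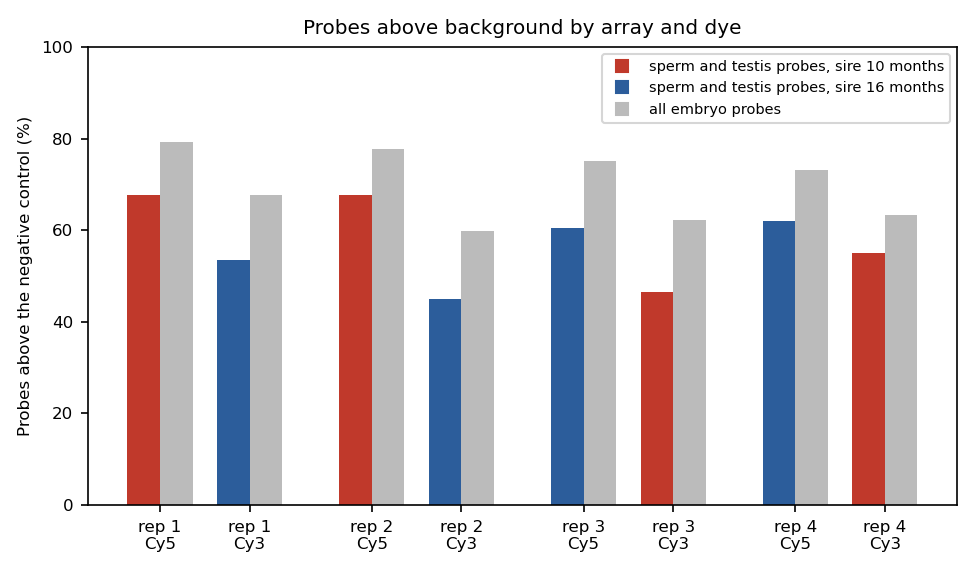
Bars give the percentage of probes above the negative control for each array and dye, coloured by sire age for the 71 sperm and testis probes and grey for all embryo probes. The coloured bar lies under the grey one in each of the 8 measurements, and Cy5 lies over Cy3 on each array for both.

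The 4 genes of the sperm nucleus each had 1 probe, and none was above background in all 8 measurements (against 53.7% of probes with a symbol). PRM1, the protamine that packs sperm DNA in cattle, read 1.68, 1.16, 1.18 and 1.81 times the negative control at 10 months and 1.23, 1.28, 1.21 and 1.39 times at 16 months, and was above background in 6 of 8. The younger sire was higher on replicates 1 and 4 by level, and the ranges of the ages overlapped. After normalisation its log2 ratio of 10 over 16 months was 0.49, -0.22, 0.05 and 0.70 on replicates 1 to 4, and the fit over the 4 arrays was 0.25 ± 0.17 (SE; limma, unadjusted p = 0.168). That fit was 0.076 without replicate 1, 0.092 without replicate 4, 0.43 without replicate 2 and 0.42 without replicate 3, and 0.028 with set-aside spots kept.

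PRM2, the second protamine, read 1.45, 1.28, 1.17 and 1.33 times the negative control at 10 months and 1.36, 1.21, 1.19 and 1.37 times at 16 months. The ratios of 10 over 16 months were 0.04, -0.19, 0.02 and -0.0050 on the log2 scale, with a fit of -0.03 ± 0.12. The ages overlapped, and replicate 2 alone was away from 0. TNP1, the transition protein that precedes the protamines, read 1.80, 2.20, 1.12 and 1.99 times the negative control at 10 months and 0.851, 1.53, 1.73 and 2.17 times at 16 months. On the log2 scale its ratios were 1.42, 0.09, -0.69 and 0.37, and the fit was 0.30 ± 0.24, the widest standard error of the nuclear genes. Replicate 1 stood highest and replicate 3 had the opposite sign. TNP2, the second transition protein, was above background in 2 of 8 measurements, at 1.64, 1.18, 1.14 and 1.18 times the negative control at 10 months and 1.10, 1.24, 1.22 and 1.19 times at 16 months. Its log2 ratios were 0.65, -0.22, -0.02 and 0.07 (fit 0.12 ± 0.16), highest on replicate 1 and of mixed sign.

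The acrosome genes and the egg-activating phospholipase were also dim. ACR encodes acrosin, the main protease of the acrosome, and its probe was above background in 7 of 8 measurements, between 0.858 and 1.45 times the negative control. Its log2 ratios were -0.45, 0.36, 0.26 and 0.17 (fit 0.09 ± 0.15), negative on replicate 1 and positive on the other three. ZPBP, which binds the zona pellucida and is needed in mice to form a normal acrosome, was above background in 7 of 8 measurements, between 1.10 and 1.79 times. The log2 ratios were 0.60, -0.20, 0.36 and -0.0026 (fit 0.19 ± 0.16), above 0 on replicates 1 and 3.

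IZUMO1, the sperm protein that binds its receptor JUNO on the egg, was above background in 3 of 8 measurements, between 1.06 and 1.28 times the negative control. The array ratios were -0.32, -0.05, 0.43 and -0.14, with a fit of -0.02 ± 0.14, so only replicate 3 was positive. PLCZ1, the sperm phospholipase that starts the calcium oscillations of egg activation, was above background in 2 of 8 measurements. It read 1.54, 1.07, 1.03 and 1.01 times the negative control at 10 months and 1.27, 1.14, 0.990 and 0.857 times at 16 months. Both measurements above background came from replicate 1, so the probe was not tested for sire age; its log2 ratios were 0.33, -0.22, 0.21 and 0.41.

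Tektins are filament proteins that line the inside of the tail's doublet microtubules, and SPAG6, SPAG16 and SPAG17 belong to the central pair apparatus that controls the beat. Of 11 tektin and axoneme probes, 6 were tested (54.5%, against 86.2% of probes with a symbol). In all 8 measurements 1 was above background (9.09%, against 53.7%). That probe was for SPAG1, a cytoplasmic factor that helps assemble dynein arms, and it read 2.31, 3.07, 1.36 and 2.52 times the negative control at 10 months and 1.72, 1.76, 2.77 and 3.09 times at 16 months. On each array its Cy5 level was the higher, and after normalisation the fit was -0.01 ± 0.18. TEKT1 was above background in 7 of 8 measurements, TEKT2 and TEKT5 in 2 each, and TEKT3 and TEKT4 in none.

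TEKT2 was above background only in the 10-month samples of replicates 1 and 2, and TEKT5 only in the 16-month samples of the same arrays. Each thus met the filter for testing through a single age, and the share of all probes that did so was not counted. At the other age neither probe was well above background on any array, so its ratios there describe background signal. The log2 ratios were 0.04, 0.39, 0.21 and -0.11 for TEKT2 (fit 0.13 ± 0.13). For TEKT5 they were -0.39, -0.35, 0.42 and 0.11 (fit -0.05 ± 0.12), negative with one dye orientation and positive with the other. The SPAG6 probe with the lowest unadjusted p among axoneme probes lower at 10 months was above background in 2 of 8 measurements, with ratios of 0.28, 0.08, -1.03 and -0.32 and a fit of -0.25 ± 0.15. The other SPAG6 probe, above in 4 of 8, had a fit of -0.14. SPAG16, SPAG17 and SPAG8, an inner protein of the doublet microtubules, were above background in 1 measurement each and were not tested.

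Outer dense fibres stiffen the tail around the axoneme, and the fibrous sheath, which is anchored by AKAP3 and AKAP4, surrounds them in the principal piece. Of 12 probes for these structures, 9 were tested (75%, against 86.2% of probes with a symbol). In all 8 measurements 3 were above background (25%, against 53.7%): 1 each for ODF2, ODF2L and ODF3L1. ODF1, the fibre protein that is specific to sperm, was above in 6 of 8 measurements, between 1.06 and 1.49 times the negative control, with a fit of -0.01 ± 0.12. ODF2 is also a component of centriole appendages in somatic cells, and its first probe read 2.19, 2.43, 1.71 and 2.24 times at 10 months and 1.69, 1.57, 3.19 and 2.97 times at 16 months. The fit of that probe was -0.0035 ± 0.14, and the second ODF2 probe, above in 5 of 8, gave -0.06 ± 0.12. The ODF3-like genes ODF3L1 and ODF3L2 had fits of -0.06 ± 0.12 and -0.01 ± 0.15. AKAP3 was above background in none of its 8 measurements and AKAP4 in 1.

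ODF2L, named for its likeness to ODF2, had probes of differing reach. One was above background in all 8 measurements, between 2.77 and 7.10 times the negative control, with log2 ratios of 0.43, 0.03, -0.06 and 0.08 and a fit of 0.12 ± 0.13. The other was above in 7 of 8, at 1.59, 1.34, 1.45 and 1.48 times at 10 months and 1.30, 1.16, 1.24 and 1.39 times at 16 months. On this second probe the younger sire was higher on every array, by 0.24, 0.10, 0.45 and 0.27, and the fit was 0.27 ± 0.12 (limma, unadjusted p = 0.0540; Benjamini-Hochberg adjusted p = 0.957). The first probe shared neither that run of signs nor the size, and the second fell to 0.0081 with spot means in place of medians and to 0.17 with set-aside spots kept. Among fibre probes lower at 10 months, the lowest unadjusted p belonged to an ODF4 probe with ratios of -0.14, 0.37, -0.09 and -0.53 (fit -0.10 ± 0.14), and the other ODF4 probe had the opposite sign at 0.16 ± 0.14.

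CatSper is the calcium channel of the sperm tail that hyperactivated swimming depends on. CATSPER1 to CATSPER4 form its pore, and CATSPERB is an auxiliary subunit. Of the 5 probes, 4 were tested (80%, against 86.2% of probes with a symbol). Only CATSPERB was above background in all 8 measurements (20%, against 53.7%). It read 8.36, 2.52, 9.30 and 3.51 times the negative control at 10 months and 4.70, 1.44, 7.76 and 6.16 times at 16 months, so both samples on replicate 2 were lower than both on replicates 1 and 3, and the ages overlapped. Normalised log2 ratios were 0.18, 0.49, 1.20 and 0.02, positive on all 4 arrays but close to 0 on replicate 4, and the fit was 0.47 ± 0.19 (limma, unadjusted p = 0.0413, adjusted p = 0.957).

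The pore subunits were above background in fewer measurements. CATSPER1 and CATSPER3 were each above background in 6 of 8 measurements and CATSPER2 in 2 of 8, and CATSPER4 never was. CATSPER3 had log2 ratios of -0.24, -0.63, 0.20 and -0.24 and a fit of -0.23 ± 0.14, lower at 10 months on every array but replicate 3. CATSPER2 was above background in 10-month samples only and so met the filter for testing through that age alone. Its levels ran from 1.075 to 1.29 times the negative control, so its fit of 0.05 ± 0.12 describes signal near background. CATSPER1 had ratios of 0.33, 0.83, -0.63 and -0.16, whose sign followed the dye orientation, and a fit of 0.09 ± 0.14.

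The 3 member probes that were at least 10 times the negative control in every measurement were all SPATA probes, 1 for SPATA24 and 2 for SPATA2. Of 27 probes for 17 genes, 20 were tested (74.1%, against 86.2% of probes with a symbol). In all 8 measurements 10 were above (37.0%, against 53.7%). SPATA24, known in mice to bind the TBP-like protein of spermatids, read 211, 373, 90.4 and 85.2 times the negative control at 10 months and 70.4, 108, 140 and 262 times at 16 months on its first probe. Each array's higher level was the Cy5 one, and the normalised ratios were 0.21, 0.21, 0.40 and -0.07 (fit 0.19 ± 0.13). Its second probe ran from 2.41 to 5.36 times with a fit of -0.15 ± 0.12, so the probes differed in sign as well.

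SPATA2, an adaptor that links the deubiquitinase CYLD to the linear ubiquitin ligase complex in human cells, was well above background on both probes, at 12.4 to 39.1 times and 13.1 to 32.2 times the negative control. Their fits were -0.21 ± 0.16 and 0.08 ± 0.12, of opposite sign and each smaller than 2 standard errors. SPATA2L, its relative, ran from 1.34 to 1.75 times with a fit of 0.03 ± 0.11. SPATA5L1, an ATPase used in ribosome assembly in human cells, ran from 3.35 to 7.87 times and had a fit of -0.09 ± 0.11. The probes for these 3 genes thus gave signal everywhere and no age difference past the test.

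SPATA22 works with MEIOB in meiotic recombination in mice. Its first probe was above background in all 8 measurements, at 8.82, 13.6, 4.35 and 5.03 times the negative control at 10 months and 5.07, 5.69, 10.2 and 14.7 times at 16 months. Cy5 was the higher dye on every array, and the age ranges overlapped. The fits of its probes were -0.16, -0.28 and -0.16, all lower at 10 months and none past the test. The middle one had array ratios of 0.23, 0.94, -1.02 and -1.26, positive where the younger sire carried Cy5 and negative where it carried Cy3; its dye coefficient was 0.86 against an age coefficient of -0.28 ± 0.15 (limma, unadjusted p = 0.0971).

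SPATA6, which builds the joint between sperm head and tail in mice, gave the highest fit of any member. The tested probe read 2.70, 2.97, 1.93 and 3.29 times the negative control at 10 months and 1.32, 1.89, 1.92 and 4.14 times at 16 months; the younger sire was higher by level on replicates 1 and 2, barely so on replicate 3 and lower on replicate 4, and the ranges overlapped. Its log2 ratios were 1.28, 0.19, 0.44 and 0.42, positive on all 4 arrays with replicate 1 apart from the rest, and the fit was 0.58 ± 0.18 (limma, unadjusted p = 0.0123, adjusted p = 0.957). Without replicate 1 the fit was 0.31. The other SPATA6 probe was above background in 1 of 8 measurements, between 0.971 and 1.29 times, so it gave no second reading. SPATA7, a protein of the photoreceptor cilium, likewise had 1 probe above in all 8 measurements, between 1.27 and 1.59 times, and 3 probes above in none.

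The other SPATA genes stayed nearer background. SPATA13 was above in all 8 measurements, between 1.27 and 1.71 times the negative control, with a fit of -0.09 ± 0.12. SPATA18, which acts in mitochondrial quality control, was above in 7 of 8, with a fit of 0.23 ± 0.16. SPATA9 was above in 5 and 6 of 8 on its probes, SPATA1, SPATA20 and SPATA21 in 4 each, and SPATA17 in 2, both at 10 months. SPATA17 thus met the filter for testing through that age alone. It ran from 0.924 to 1.39 times the negative control, with a fit of 0.13 ± 0.13. Of the SPATA4 probes, 1 was above in 4 of 8 and the other in none, as were SPATA3 and SPATA19. The fits of the 20 tested SPATA probes ran from -0.28 to 0.58, with 8 above 0.

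**Figure D3:**
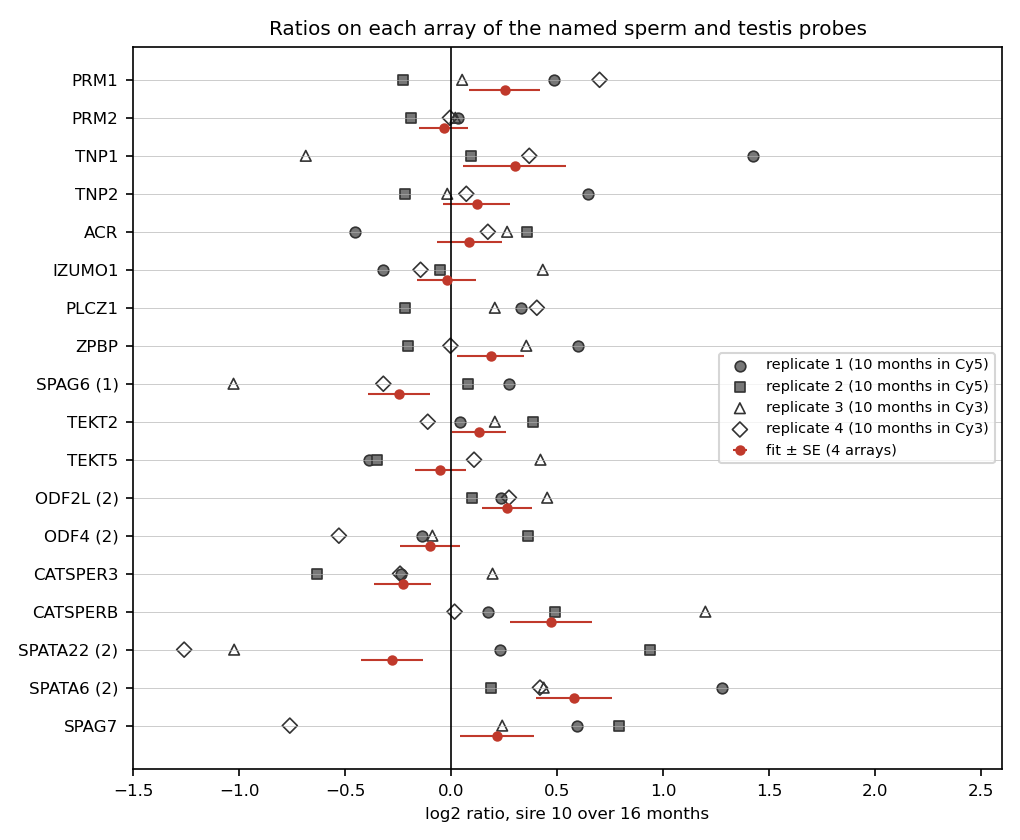
The horizontal axis is the log2 ratio of 10 over 16 months for 18 sperm and testis probes, with 1 symbol per array (filled, younger sire in Cy5; open, in Cy3) and in red the fit over the 4 arrays with its standard error; PLCZ1 was not tested. SPATA6, CATSPERB and the second ODF2L probe have all 4 symbols on the right of 0, and SPATA22 has the filled and open symbols on opposite sides.

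Of 8 probes for the remaining SPAG genes, 7 were tested (87.5%, against 86.2% of probes with a symbol). In all 8 measurements 5 were above background (62.5%, against 53.7%). SPAG5, or astrin, is a protein of the mitotic spindle, and its levels ran from 3.08 to 6.99 times the negative control, with a fit of -0.08 ± 0.13. SPAG9, a scaffold of JNK signalling and of motor transport, ran from 5.46 to 16.5 times, with a fit of -0.10 ± 0.12. Both are in use in dividing cells. SPAG4, a SUN protein of the nuclear envelope that shapes the sperm head in mice, had fits of -0.04 ± 0.17 and 0.05 ± 0.13 on its probes. SPAG7 was above in all 8 measurements, between 1.67 and 5.11 times, and on each array its Cy5 level was the higher. Its log2 ratios were 0.59, 0.79, 0.24 and -0.76, with a fit of 0.22 ± 0.17 and a dye coefficient of 0.48. The normalised ratio was above 0 on every array but replicate 4. On replicate 3 the 10-month level was the lower, at 1.67 against 1.88 times. SPAG11B, a defensin-like gene of the epididymis, had 1 of 3 probes above in all 8 measurements, between 1.40 and 2.67 times, with a fit of 0.08 ± 0.17.

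No member probe passed the sire age test. Of 53 tested, 0 had an adjusted p under 0.05 (limma, Benjamini-Hochberg over 36325 probes; background 0%), and adjusted values started at 0.957. Before adjustment, 2 were higher at 10 months, SPATA6 and CATSPERB, at p under 0.05, where the background was 2.05%, and 0 were lower, where it was 1.92%. Only 3 members (5.66%) had the same sign on all 4 arrays, against 9.37% of all tested probes, and all 3 were higher at 10 months. The fits ran from -0.28 to 0.58, with 24 of 53 above 0.

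The width of the intervals depended on the background offset of 50, which draws ratios of dim probes towards 0. With it, the 95% interval of the fit lay within 2-fold either way for all 53 members (background 99.4%) and within 1.5-fold for 45 (background 87.2%). The interval reached a median of 0.31 and at most 0.57 on the log2 scale to either side of the fit. With an offset of 0, 46 of the 53 lay within 2-fold (95.6% of all probes) and 25 within 1.5-fold (48.1% of all probes), and the fits ran from -0.61 to 0.77. SPATA22 then had a fit of -0.61, SPAG6 of -0.56, TNP1 of 0.59, CATSPER3 of -0.45 and SPATA6 of 0.77. For 31 of the 53, the dye coefficient was larger in size than the age coefficient, and dye coefficients ran from -0.32 to 0.86. The labels do not tie arrays to bulls, so these p-values measure only the spread between arrays.

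**Figure D4:**
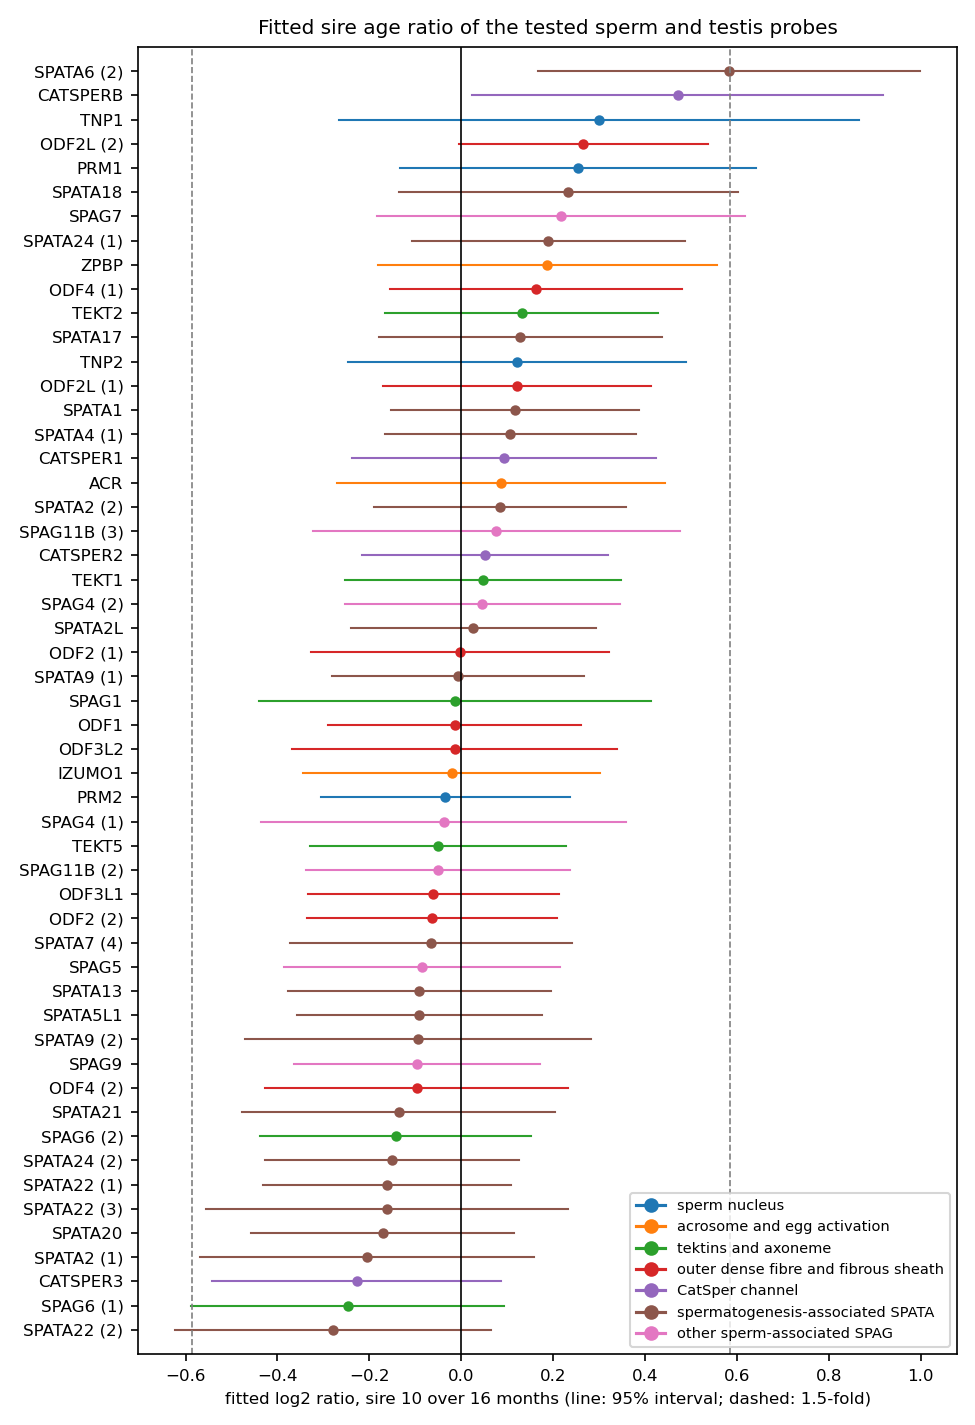
Points give the fitted log2 ratio of 10 over 16 months for the 53 tested sperm and testis probes, ordered by size and coloured by role, and lines give the 95% interval; dashed lines mark 1.5-fold. Lines of SPATA6 and CATSPERB alone leave out 0, before any adjustment for the number of probes tested, and no point lies past the dashed lines.

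Each gene taken at its brightest probe, the 42 tested genes had a median log2 ratio of 0.01, and 21 of 42 were above 0. The 13506 tested genes of the array had a median of -0.0027, with 49.2% above 0. By array the members' median was 0.05, 0.01, 0.02 and -0.0038 on replicates 1 to 4. By role, the tested genes had medians of 0.19 for the nucleus (4 genes), 0.09 for acrosome and egg activation (3), -0.01 for tektins and axoneme (5) and -0.01 for outer dense fibres and sheath (6). The median was 0.07 for CatSper (4), -0.07 for SPATA (15) and -0.04 for the other SPAG genes (5). No role leaned one way on every array.

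Other genes of sperm and testis, which the symbol rule does not take, were mostly near background too. Of 125 listed, 92 were on the array with 121 probes. Of these probes, 88 (72.7%) were tested and 35 (28.9%) were above in all 8 measurements. The same shares were 86.2% and 53.7% of probes with a symbol. The 70 tested genes had a median log2 ratio of 0.04, with 0 past the adjusted test. At an unadjusted p under 0.05, 2 genes were higher at 10 months and 1 lower, where the shares of all tested probes were 2.05% and 1.92%. All 3 were germ cell genes: TEX14, which germ cell bridges need in mice (0.42 ± 0.13), SPO11, which makes the DNA breaks of meiosis (0.42 ± 0.17), and SOHLH2, a transcription factor of early germ cells (-0.35 ± 0.15). TEX14 and SPO11 were higher at 10 months on all 4 arrays, with replicate 3 the highest for both at 0.86 and 1.14. SOHLH2 was above background in 4 of 8 measurements. Its array ratios of -0.17, 0.27, -0.46 and -1.03 were of mixed sign and largest in size on replicate 4. By list, the median was 0.07 over 12 acrosome and fertilisation genes, 0.06 over 12 chromatin and spermatid genes, 0.01 over 24 tail, energy and motility genes and 0.04 over 22 germ cell and meiosis genes. The fits of the 70 genes ran from -0.35 to 0.80, and the gene at 0.80, of the germ cell list, was not among those 3. RSPH6A, a radial spoke protein, and PPP1CC, a phosphatase with a testis form, were at least 11.2 and 30.4 times the negative control, with fits of 0.35 ± 0.25 and -0.22 ± 0.12. The array ratios of RSPH6A were 0.11, 0.01, 1.49 and -0.21, so its fit leaned on replicate 3. Those of PPP1CC were -0.50, -0.36, 0.16 and -0.17.

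Markers of other cells were read the same way. Above in all 8 measurements were 5 of 18 oocyte probes, 2 of 11 cumulus and granulosa probes, 2 of 8 leukocyte and erythroid probes, 5 of 11 probes for Sertoli and Leydig cells of the testis and 3 of 7 for multiciliated epithelium, which shares tail genes with sperm. These were 27.8%, 18.2%, 25%, 45.5% and 42.9%, against 53.7% of probes with a symbol. Above in none were 1, 1, 2, 2 and 1 probes in that order. These were 5.56%, 9.09%, 25%, 18.2% and 14.3%, against 8.21% of probes with a symbol. Among Sertoli cell genes, AMH and CLDN11 were above background in none of 8, SOX9 in 4, DHH in 7 and GATA4 in all 8. GATA4 ran from 1.53 to 4.4 times the negative control. Of the Leydig cell genes, INSL3 was above in 7, CYP17A1 and HSD3B1 in all 8, and STAR in 6 on 1 probe and in all 8 on the others. The highest levels were 4.02 times for CYP17A1, 7.71 for HSD3B1 and 8.6 for STAR. Of the multiciliated epithelium genes, CCDC39 was above in none, RFX3 in 1, DNAH9 in 5 and FOXJ1 in 7. CCDC40, MYB and TUBA1A, a tubulin, were above in all 8. Their levels were 2.41 to 5.08, 1.39 to 2 and 124 to 691 times the negative control. Of the leukocyte genes, LYZ was above in none, CD3E in 3, CD74 in 5 and CD14 in 7. PTPRC was above in all 8 on 1 probe, at 22.5 times or more, and in none on the other. Of the erythroid genes, HBB was above in 6 and HBA in all 8. The median log2 ratios of these lists were -0.12, 0.02, 0.07, 0.01 and 0.01 in that order, against -0.10 for trophectoderm and 0.15 for inner cell mass. None of these markers passed the adjusted test. The part of other cells in the members' signal was not tested.

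**Figure D5:**
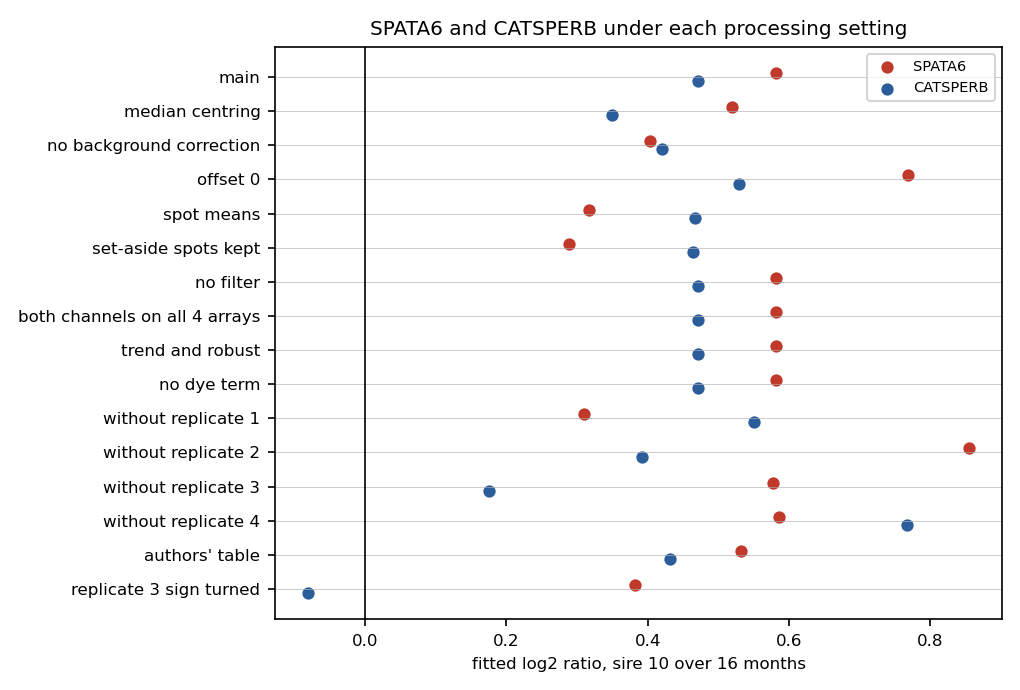
Each row is 1 way of processing the arrays, of leaving 1 out, or of turning replicate 3 against its labelled ages. Points give the fitted log2 ratio of 10 over 16 months for SPATA6 (red) and CATSPERB (blue). SPATA6 stays on the right of 0, between 0.29 and 0.85. CATSPERB runs from -0.08, with replicate 3 turned in sign, to 0.77, without replicate 4. With the labelled ages its lowest fit is 0.18, without replicate 3.

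SPATA6 and CATSPERB each leaned on an array. CATSPERB had a fit of 0.18 without replicate 3 and of 0.77 without replicate 4, the one setting in which it passed the adjusted test (limma, adjusted p = 0.0150). Over all settings its adjusted p ran from 0.0150 to 1.00, and 1858 of 36325 probes passed without replicate 4, so the array left out changed the call for many probes besides this one. SPATA6 did not pass the adjusted test in any setting tried, with its lowest adjusted p at 0.108.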

How the data were processed

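Blastocyst RNA of either sire age was amplified and labelled chemically with Cy3 or Cy5, per the labels' protocols. The deposited scan files hold, per the file headers, foreground and local background intensity for 45220 spots at 635 nm (Cy5) and 532 nm (Cy3), not normalised. The authors' deposited value table holds log2 ratios; limma is the tool that the submitters' processing notes name. The sources used here give neither its version nor its filters. Column by column it correlated with the Cy5 over Cy3 ratio computed here at r = 0.952 to 0.979, so it runs Cy5 over Cy3; column medians were -0.016, -0.014, -0.0057 and -0.0090, and whether they were centred remained unknown.

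R 4.3.3 and limma 3.58.1 were used on spot medians: normexp on the local background (offset 50), spots set aside by the scan software left out, loess within each array with control spots at weight 0. Of 43794 embryo probes, 175 had a set-aside spot and 7294 were dim, which left 36325. lmFit and eBayes fitted a dye and an age coefficient (2 residual and 5.72 prior degrees of freedom), with Benjamini-Hochberg adjustment over all 36325 and a threshold of 0.05. The steps were tested on simulated data. Array numbers limit the precision, and single-array ratios still hold the dye effect.

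Symbols came from the platform annotation, which names 1 gene for 21790 probes, several for 0 and none for 22004; all 54 member symbols matched a RefSeq table of assembly ARS-UCD2.0, used for names only. The members, gene lists and marker lists were chosen with earlier results of these data known. Values on every array are given for the genes the symbol rule names singly, for members at an unadjusted p under 0.05, and for the lowest p in each direction of each family. The rule also covered probes with 1 sign on all arrays and a 1.5-fold fit, and genes whose probes differ by over 0.5, and these took none. Other lists are named by their lowest p, and further members were named after their values were seen. Alternatives were another threshold, spot mean, background, normalisation, filter, variance model, dye term, the authors' table, replicate 3 turned, and each array left out. Shares of all probes beside each setting, and intervals at each setting, were added after the data were seen.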

Additional observations from a re-analysis of the deposited data

How the results depend on the processing

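Under other thresholds, spot means and background subtraction, 43 to 57 of the 71 sperm and testis probes were above the negative control, and the share of probes with a symbol moved from 76.3% to 88.8%. With an array left out 49 to 51 were (82.6% to 84.3%). The count passing the adjusted age test was 0 in every setting except without replicate 4, so its range with an array left out was 0 to 1. The count at an unadjusted p under 0.05 and higher at 10 months, 2 as reported, was 3 with no filter and 3 with another variance model. These were 4.23% and 5.66% of members, against 2.08% and 2.23% of all probes. It was 0 with spot means and 0 with replicate 3 turned in sign, where the shares of all probes were 1.46% and 1.65%. With median centring, set-aside spots kept or no background correction it was 1 (1.89% of members). The shares of all probes were then 1.62%, 0.970% and 1.96%. With both channels required on all 4 arrays it was 1 of 20 members tested (5%, against 1.85% of all probes). With an array left out it was 0 to 6. The count lower at 10 months was 0 to 3 with an array left out. Both highest counts came without replicate 4, at 11.3% and 5.66% of members against 9.81% and 8.26% of all probes. The members' median was -0.025 with both channels required and 0.00099 to 0.054 with an array left out. The median of other sperm genes was 0.076 at offset 0, 0.0033 with spot means, 0.11 with both channels required and -0.020 to 0.040 with an array left out. Of 241 alternative values over 17 named probes, 216 kept direction and side, 24 changed sign and 1 passed the test, and the causes were not tested. Signs changed for IZUMO1 with median centring (0.0035) and set-aside spots kept (0.075), for ODF4 with median centring (0.018), no background correction (0.0079) and set-aside spots kept (0.043), for PRM2 with no background correction (0.0081), and with set-aside spots kept for TNP1 (-0.047), TNP2 (-0.020) and TEKT5 (0.0039). With replicate 3 turned, which sets its samples against their labelled ages, they changed for CATSPERB (-0.080), SPAG7 (-0.19), SPAG6 (0.071) and TEKT2 (-0.018). At offset 0, 10 of the 17 fits were over 1.5 times larger in size. With spot means 11 were over 1.5 times smaller, among them ODF2L (0.0081), TNP1 (0.012) and SPAG6 (-0.017). With an array left out, ranges that crossed 0 were -0.12 to 0.29 for ACR, -0.17 to 0.12 for IZUMO1, -0.013 to 0.39 for ZPBP, -0.033 to 0.47 for SPAG7, -0.22 to 0.029 for ODF4, -0.091 to 0.021 for PRM2, -0.032 to 0.63 for TNP1, -0.095 to 0.34 for TNP2 and -0.13 to 0.027 for TEKT5. Ranges that did not were 0.076 to 0.43 for PRM1, -0.34 to -0.12 for CATSPER3, -0.46 to -0.10 for SPATA22, -0.42 to -0.070 for SPAG6, 0.045 to 0.22 for TEKT2, 0.22 to 0.31 for ODF2L, 0.31 to 0.85 for SPATA6 and 0.18 to 0.77 for CATSPERB. The Cy5 over Cy3 ratios of the arrays correlated at 0.12 to 0.32 in every pair. Pairs with the same dye orientation gave 0.32 (replicates 1 and 2) and 0.12 (3 and 4), and pairs with opposite orientation gave 0.14 to 0.30. These ratios were not turned by age, so the values do not measure how well the arrays matched on sire age. Each array held both ages and the fit used the ratio within each array, so the ages were paired by array. The labels allowed no pairing by bull. Signal close to the negative control, where 33 tested members had medians of 1.01 to 1.76 times it, limits what their ratios can show.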

Other observations

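Probes for the same gene often gave different readings. SPATA24 had a probe between 70.4 and 373 times the negative control and another between 2.41 and 5.36 times, and SPATA22 had 1 probe between 4.35 and 14.7 times and 2 others that were not above background in every measurement. PTPRC, the pan-leukocyte antigen CD45, had a probe at least 22.5 times the negative control in all 8 measurements and another above background in none. TFAP2C, a trophectoderm factor, had a probe at 92.4 to 369 times, another at 8.26 to 21.4 times and another at 1.59 to 6.29 times. Which transcript each probe reads was not tested, since no probe sequence was used here. Of the marker lists, BTG4, an oocyte gene that is lost as maternal transcripts are cleared, had log2 ratios of -1.23, -1.92, 0.22 and -0.35 and a fit of -0.82 ± 0.16 (limma, unadjusted p = 0.0010, adjusted p = 0.957). Its probe was above background in 7 of 8 measurements, between 1.03 and 3.01 times the negative control. The largest ratios in size came from replicates 1 and 2, where the younger sire carried Cy5. BTG4 had the lowest fit of the oocyte list, whose median was -0.12. MOS and ZP2 of that list had fits of 0.09 and -0.19.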
